A study of Mus musculus with 11 samples.

Results

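The genes described here are 9 members of the antioxidant programme of the transcription factor NRF2, measured in vascular fragments of the mouse brain after an experimental stroke. They are Nfe2l2, which encodes NRF2 itself, Keap1, Hmox1, Nqo1, Gclc, Gclm, Txnrd1, Srxn1 and Osgin1. They were chosen by gene symbol, with the probe set of the highest mean where a symbol had several, and each of the 9 had 1 probe set among the 30790 genes tested. The mice were adult C57BL/6 males that had undergone MCAO, the occlusion of the middle cerebral artery, and the vessels came from the hemisphere on the occluded side. The mice were given PBS (phosphate-buffered saline, the control) or imatinib, a tyrosine kinase inhibitor, and their vessels were collected at 3 h or at 24 h. At 3 h there were 3 arrays with PBS and 2 with imatinib, and at 24 h there were 3 arrays with each, which makes 4 groups and 11 arrays. The 3 h groups had received 3 treatments and the 24 h groups 4, so the time and the number of treatments cannot be told apart. All groups had MCAO, and vessels without it were not analysed here.

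In unstressed cells NRF2 is held by KEAP1, which presents it to a ubiquitin ligase for degradation. Oxidants and electrophiles modify cysteines of KEAP1, NRF2 then accumulates, and with a small MAF protein it binds antioxidant response elements in its target genes. Among the targets are enzymes that degrade haem (Hmox1) and reduce quinones (Nqo1), both subunits of the enzyme that starts glutathione synthesis (Gclc, Gclm), enzymes that keep thioredoxin and peroxiredoxins reduced (Txnrd1, Srxn1), and the growth inhibitor gene Osgin1. In the brain the programme is best known from astrocytes and is also active in endothelial cells and macrophages. Because NRF2 is controlled mainly through its stability, the RNA of Nfe2l2 does not measure its activity.

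The promoters of Nfe2l2 and Osgin1, the members that changed, and of Srxn1, which held the most matches, are shown to let the reader see where the core of the antioxidant response element lies. Each is the stretch of 250 bases before a transcription start given by RefSeq (build GRCm38.p6), read 5′ to 3′ in the direction of the gene. Capitals mark matches to TGACNNNGC or TGAGNNNGC on either strand, where N is any base. The Nfe2l2 window is chr2:75704664-75704913 on the minus strand, the Srxn1 window chr2:152105274-152105523 on the plus strand and the Osgin1 window chr8:119436897-119437146 on the plus strand. The Osgin1 window lies inside the annotated span of the gene (chr8:119425882-119446257), so it belongs to an internal start and not to the outermost 5′ end.
Nfe2l2 promoter: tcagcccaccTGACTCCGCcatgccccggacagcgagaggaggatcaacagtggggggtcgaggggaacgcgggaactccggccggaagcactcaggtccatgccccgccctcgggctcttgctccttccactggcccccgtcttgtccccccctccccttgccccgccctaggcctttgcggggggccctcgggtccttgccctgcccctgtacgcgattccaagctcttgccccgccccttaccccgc
Srxn1 promoter: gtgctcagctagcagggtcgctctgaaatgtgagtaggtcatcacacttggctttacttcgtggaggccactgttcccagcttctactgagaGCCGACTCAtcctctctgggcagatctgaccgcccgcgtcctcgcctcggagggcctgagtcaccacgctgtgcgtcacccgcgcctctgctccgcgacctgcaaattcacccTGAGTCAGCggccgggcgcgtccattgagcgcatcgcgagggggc
Osgin1 promoter: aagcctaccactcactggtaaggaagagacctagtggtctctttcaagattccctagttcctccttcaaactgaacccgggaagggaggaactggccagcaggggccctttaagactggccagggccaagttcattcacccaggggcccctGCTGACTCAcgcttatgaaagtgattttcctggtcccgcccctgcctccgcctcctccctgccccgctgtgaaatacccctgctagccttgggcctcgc
A RefSeq window was found for 7 of the 9 genes, with 9 windows in all because Txnrd1 had 3 starts, and none for Hmox1 and Gclc. Of these 7 genes, 5 held a match: Nfe2l2, Gclm and Osgin1 1 each, Txnrd1 1 in 1 of its windows and Srxn1 2. By window, 5 of the 9 held a match, where 23% of all 32851 windows of the same length did. A match is a string of letters and not a bound site, and elements farther from the start were not searched.

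The values are log2 RMA signals (robust multi-array average, a background-corrected and normalized signal of a probe set), so a difference of 1 is a doubling. Signals of different probe sets are not compared with each other. Every member lay above the 25th percentile of every array, the lowest being Nqo1 at the 50.3rd percentile of its array. Of the 10 endothelial markers none lay below the 25th percentile in any group, and their mean level was 10.4 to 11.0 over the 11 arrays, so RNA of the labelled vessel cells was present. Microglial markers (6 genes, mean level 10.1 to 10.7) were also present. PBS 3 h replicate 1 stood apart from the other arrays on the second principal component (35.9, the others -12.5 to 9.58). It was the lowest array of its group for Nfe2l2, Hmox1, Gclc, Gclm, Txnrd1 and Srxn1, though for Nfe2l2 only narrowly (10.906 against 10.914). It was the highest of its group for Keap1, Nqo1 and Osgin1. The main values that moved without it are given both ways. The labels do not say whether replicates were separate animals, so p-values measure the spread between these samples. In bulk vessels, fewer cells of a type and less RNA per cell cannot be told apart.

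Over time, the RNA of the regulator fell, while the target enzymes among the 9 members showed no change that passed the test. Other targets of NRF2 did change. Of 34 measured, 12 rose and 3 fell in PBS, beside 9.34% of all genes called higher and 7.28% lower. In imatinib 10 rose and 3 fell, beside 7.76% of all genes called higher and 5.32% lower. Nfe2l2 passed as lower at 24 h than at 3 h in both treatments, and Osgin1 passed in imatinib only. In PBS the difference of Osgin1 did not pass (adjusted p = 0.109 in limma). Hmox1, Nqo1, Gclc, Gclm, Txnrd1 and Srxn1, and the inhibitor Keap1, passed the test in neither treatment. Between imatinib and PBS none of the 9 passed the test at either time. The intervals of several members still allow moderate differences, among them Osgin1 and Gclm at 3 h and Nqo1 and Hmox1 at both times.

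**Figure D1:**
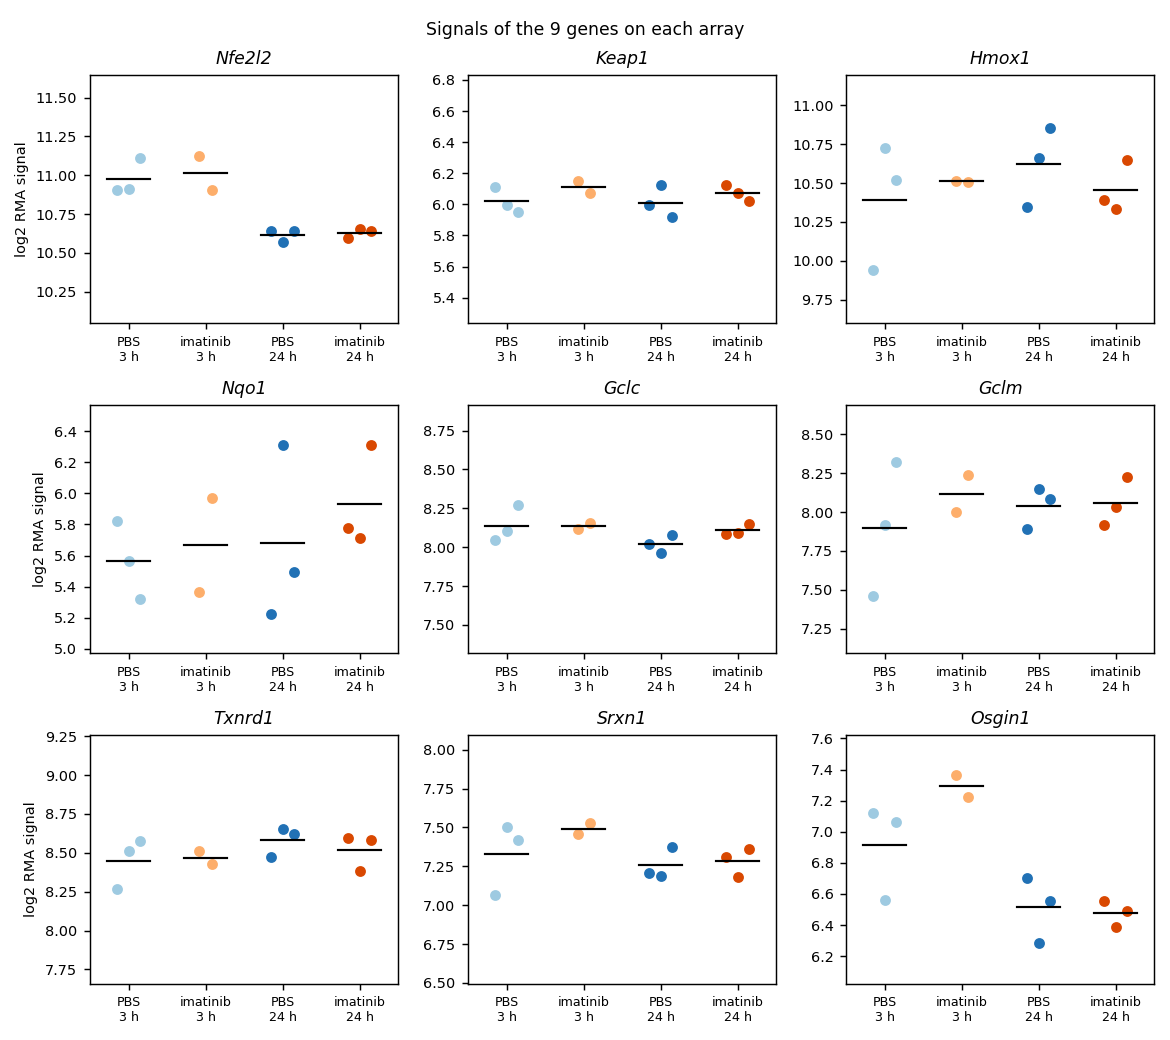
Log2 RMA signal (vertical axis, the same span in each panel) of the 9 genes on the 11 arrays, by group; points are arrays and lines are group means. For Nfe2l2 every 24 h array lies below every 3 h array; Hmox1, Gclm and Txnrd1 overlap between times.

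Nfe2l2 encodes NRF2, the activator of the programme. At 3 h its signals were 10.91, 10.91 and 11.11 with PBS and 11.12 and 10.90 with imatinib. At 24 h they were 10.64, 10.57 and 10.64 with PBS and 10.60, 10.65 and 10.64 with imatinib. All 6 arrays of 24 h lay below all 5 arrays of 3 h, with a gap of 0.25, while the treatments overlapped at each time. From 3 h to 24 h the signal fell from 10.98 ± 0.11 to 10.62 ± 0.04 in PBS (mean ± SD, n = 3 in each), a difference of -0.36 ± 0.10 (SE), or 1.28-fold lower (adjusted p = 0.0252 in limma). In imatinib it fell from 11.01 ± 0.16 (n = 2) to 10.63 ± 0.03 (n = 3), a difference of -0.38 ± 0.11, or 1.30-fold lower (adjusted p = 0.0378 in limma). Each of these calls was close to the threshold. The call in PBS was lost without PBS 3 h replicate 3 (-0.29, adjusted p = 0.0910 in limma) or without PBS 24 h replicate 1 (-0.37, 0.0596), 2 (-0.33, 0.0761) or 3 (-0.37, 0.0598), and with only the compared arrays in the fit (-0.36, 0.0648), and it stood without PBS 3 h replicate 1 (-0.39, 0.0340). The call in imatinib was lost without imatinib 3 h replicate 1 (-0.27, adjusted p = 0.278 in limma), without any 1 of the imatinib 24 h arrays (-0.39 to -0.36, adjusted p = 0.0811 to 0.102) or without PBS 24 h replicate 1 or 3 (-0.38, 0.0520 and 0.0521), as well as under the replicate block (-0.41, 0.0505), with only the compared arrays in the fit (-0.38, 0.0729) and with median centring (-0.34, 0.0665).

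The mean of the 2 time differences was tested too, a contrast added after the values were seen. It was -0.37 ± 0.07 for Nfe2l2, with a 95% interval from -0.53 to -0.21 (adjusted p = 0.00272 in limma), and it passed without any 1 of the 11 arrays (-0.43 to -0.31, adjusted p up to 0.0188). The time differences in PBS and in imatinib differed by -0.03 ± 0.15 (adjusted p = 0.992 in limma for the interaction). Without PBS 3 h replicate 1 they differed by 0.01 (adjusted p = 0.996 in limma).

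Keap1 encodes the adaptor that targets NRF2 for degradation. Its signals lay between 5.92 and 6.15 on all 11 arrays. At 3 h the means were 6.02 ± 0.08 with PBS and 6.11 ± 0.06 with imatinib, and at 24 h 6.01 ± 0.10 with PBS and 6.07 ± 0.05 with imatinib. From the lowest mean to the highest, each lay within the spread of its neighbour. The mean time difference of -0.02 had a 95% interval from -0.18 to 0.13 (adjusted p = 0.863 in limma).

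Osgin1 encodes an inhibitor of growth that NRF2 induces. Its signals at 3 h were 7.12, 6.56 and 7.06 in PBS and 7.36 and 7.22 in imatinib. At 24 h they were 6.70, 6.28 and 6.55 in PBS and 6.56, 6.39 and 6.49 in imatinib. The imatinib arrays of 3 h lay above all other arrays, and PBS 3 h replicate 2 lay among the 24 h arrays. In imatinib Osgin1 fell by 0.82 ± 0.17 on the log2 scale, from 7.29 ± 0.10 to 6.48 ± 0.09, or 1.76-fold lower at 24 h (adjusted p = 0.00892 in limma). This call was lost without imatinib 3 h replicate 1 (-0.74, adjusted p = 0.0781 in limma). In PBS the difference was -0.40 ± 0.15, from 6.92 ± 0.31 to 6.51 ± 0.21, and did not pass (adjusted p = 0.109 in limma). Without PBS 3 h replicate 1 the PBS difference shrank to -0.30 and did not pass (adjusted p = 0.297 in limma). Without PBS 3 h replicate 2 the PBS difference was -0.58 and passed (adjusted p = 0.0145 in limma), and it also passed under the replicate block (-0.40, 0.0394).

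The mean of the time differences of Osgin1, added after the values were seen like that of Nfe2l2, was -0.61 ± 0.12, with a 95% interval from -0.86 to -0.35 (adjusted p = 0.00223 in limma). It passed without any 1 of the 11 arrays (-0.70 to -0.55, adjusted p up to 0.0138) and was -0.56 without PBS 3 h replicate 1. The fall was not shown to be larger in imatinib, where the interaction was -0.41 ± 0.23 (adjusted p = 0.915 in limma). Without PBS 3 h replicate 1 the interaction was -0.51 (adjusted p = 0.749 in limma).

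Hmox1 encodes haem oxygenase 1, which breaks haem down to biliverdin, iron and carbon monoxide. At 3 h its signals were 9.94, 10.72 and 10.52 with PBS and 10.52 and 10.51 with imatinib. At 24 h they were 10.35, 10.66 and 10.86 with PBS and 10.39, 10.33 and 10.65 with imatinib. The groups overlapped in each of these comparisons, and the lowest array was PBS 3 h replicate 1. At 24 h PBS had the highest mean of the groups (10.62 ± 0.26), and at 3 h the lowest (10.39 ± 0.41). The imatinib means, 10.51 ± 0.01 at 3 h and 10.46 ± 0.17 at 24 h, lay between them, and neighbours in this order lay within the spread. The time difference in PBS, 0.23 ± 0.19 (adjusted p = 0.514 in limma), was 0.002 without PBS 3 h replicate 1. In imatinib it was -0.05 ± 0.21 (adjusted p = 0.916 in limma). The 95% interval of the mean time difference, from -0.23 to 0.40, leaves out a doubling or a halving, and its value of 0.09 was -0.03 without PBS 3 h replicate 1.

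Nqo1 encodes a quinone reductase and had the largest standard errors of the 9. At 3 h its signals were 5.82, 5.56 and 5.32 with PBS and 5.37 and 5.97 with imatinib. At 24 h they were 5.23, 6.31 and 5.50 with PBS and 5.78, 5.71 and 6.31 with imatinib. Each group overlapped every other. In order of level, the means were 5.57 ± 0.25 (PBS, 3 h), 5.67 ± 0.43 (imatinib, 3 h), 5.68 ± 0.57 (PBS, 24 h) and 5.93 ± 0.33 (imatinib, 24 h), with steps smaller than the spread within groups. The mean time difference was 0.19 ± 0.20 with a 95% interval from -0.26 to 0.64, so a change of this size was not detectable with these arrays. Its time difference in PBS, 0.11 ± 0.27, was 0.24 without PBS 3 h replicate 1.

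Gclc and Gclm encode the catalytic and the modifier subunit of glutamate-cysteine ligase, the first enzyme of glutathione synthesis. Gclc signals lay between 7.96 and 8.27 on all arrays, with means of 8.14 ± 0.12 (PBS) and 8.14 ± 0.03 (imatinib) at 3 h and of 8.02 ± 0.06 (PBS) and 8.11 ± 0.04 (imatinib) at 24 h. Its time differences were -0.12 ± 0.09 in PBS (adjusted p = 0.475 in limma) and -0.03 ± 0.10 in imatinib (adjusted p = 0.913). Gclm signals were 7.46, 7.92 and 8.32 in PBS at 3 h and lay between 7.89 and 8.24 in the other groups. PBS at 3 h therefore held both the lowest and the highest Gclm array of the study. The Gclm time difference in PBS, 0.14 ± 0.19 (adjusted p = 0.703 in limma), was -0.08 without PBS 3 h replicate 1, and in imatinib it was -0.06 ± 0.21 (adjusted p = 0.906).

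Txnrd1 encodes cytosolic thioredoxin reductase, which uses NADPH to reduce thioredoxin. Its signals lay between 8.26 and 8.65, with means of 8.45 ± 0.16 (PBS) and 8.47 ± 0.06 (imatinib) at 3 h and of 8.58 ± 0.10 (PBS) and 8.52 ± 0.12 (imatinib) at 24 h. The mean time difference of 0.09 had a 95% interval from -0.09 to 0.27 (adjusted p = 0.507 in limma), and it was 0.04 without PBS 3 h replicate 1 (adjusted p = 0.755). Srxn1 encodes sulfiredoxin, which restores over-oxidized peroxiredoxins. At 3 h its signals were 7.06, 7.50 and 7.42 with PBS and 7.46 and 7.53 with imatinib. At 24 h they were 7.21, 7.19 and 7.37 with PBS and 7.31, 7.18 and 7.36 with imatinib. In imatinib the times did not overlap for Srxn1, but the difference of -0.21 ± 0.14 did not pass (adjusted p = 0.400 in limma), and in PBS it was -0.07 ± 0.12 (adjusted p = 0.782). Without PBS 3 h replicate 1 the Srxn1 difference in PBS was -0.20 (adjusted p = 0.268 in limma). Its mean time difference was -0.14 (adjusted p = 0.334 in limma), and -0.21 without PBS 3 h replicate 1 (adjusted p = 0.0797).

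In counts, 1 of the 9 members fell and none rose in PBS, beside 16.6% of all genes called, 9.34% higher and 7.28% lower. In imatinib 2 fell and none rose, beside 13.1% of all genes called, 7.76% higher and 5.32% lower. In the mean of both treatments 2 fell and none rose, where 23.0% of all genes were called, 12.6% higher and 10.4% lower. With so few members these shares are not read as a result about the set. The median difference of the 9 was -0.01 in PBS (all genes -0.02) and -0.05 in imatinib (all genes -0.04). Without PBS 3 h replicate 1 the median of the 9 in PBS was -0.08. The times did not overlap in 1 member in PBS, where 29.9% of all genes did not, and in 3 members in imatinib, where 42.3% did not. With both treatments joined the times did not overlap in 1 member, Nfe2l2, and in 17.1% of all genes.

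**Figure D2:**
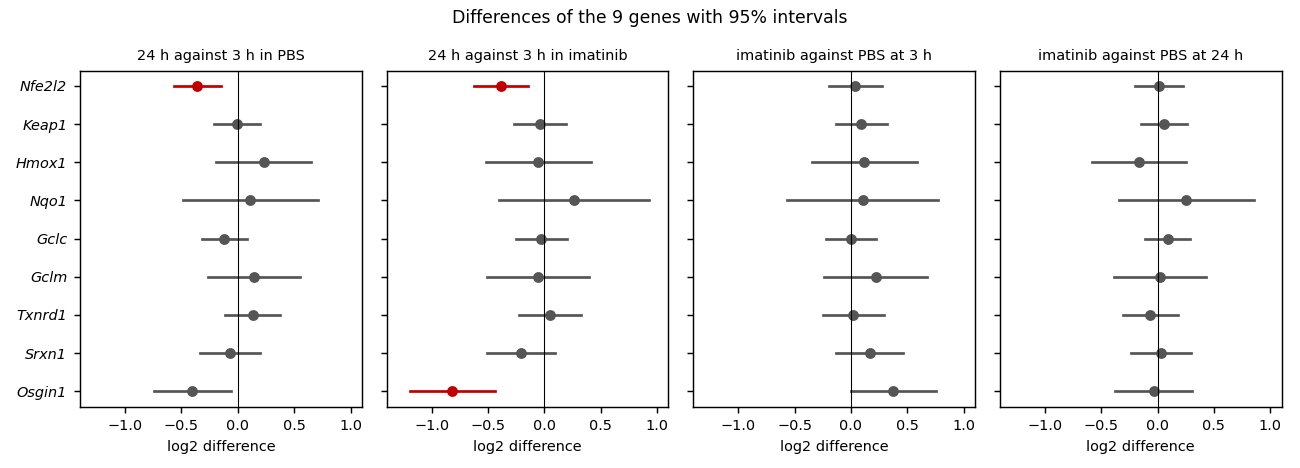
Log2 differences (horizontal axis) of the 9 genes in 4 comparisons, with 95% intervals from limma; red marks an adjusted p under 0.05. Nfe2l2 passes over time in both treatments and Osgin1 in imatinib, and none passes between imatinib and PBS.

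The comparison of imatinib with PBS asked whether the drug altered the programme at either time. None of the 9 passed at 3 h or at 24 h, and limma called 0 of 30790 genes (0.00%) at either time, against 1970 at 3 h and 1879 at 24 h with an unadjusted p under 0.05, none of them a member. At 3 h, 8 of 9 members lay above 0, with a median of 0.10 (all genes 0.00), and without PBS 3 h replicate 1 6 of 9 did, with a median of 0.003. The largest was Osgin1 at 0.38 ± 0.17, with a 95% interval from -0.003 to 0.76 (adjusted p = 0.779 in limma). Without PBS 3 h replicate 1 the value of Osgin1 was 0.48, while Hmox1 went from 0.12 to -0.11, Txnrd1 from 0.02 to -0.07, Gclm from 0.22 to 0.0003, Srxn1 from 0.16 to 0.03, Nfe2l2 from 0.04 to 0.003, Gclc from -0.002 to -0.05 and Nqo1 from 0.10 to 0.23. Both imatinib arrays at 3 h lay above the 3 PBS arrays for Osgin1, a separation that 18.7% of all genes showed. At 24 h, 6 of 9 lay above 0, with a median of 0.02 (all genes -0.01), from Hmox1 at -0.16 ± 0.19 to Nqo1 at 0.26 ± 0.27, the latter with a 95% interval from -0.34 to 0.85. Gclc differed by 0.09 ± 0.09 at 24 h (7.96 to 8.08 in PBS and 8.08 to 8.15 in imatinib, adjusted p = 0.926 in limma). The 95% intervals of Nfe2l2 were from -0.20 to 0.28 at 3 h and from -0.20 to 0.23 at 24 h, and those of Keap1 from -0.14 to 0.32 and from -0.14 to 0.26. Those of Hmox1 were wider, from -0.35 to 0.59 at 3 h and from -0.58 to 0.25 at 24 h. The interaction of treatment and time also called 0 genes, with 1690 at an unadjusted p under 0.05 and no member among them.

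**Figure D3:**
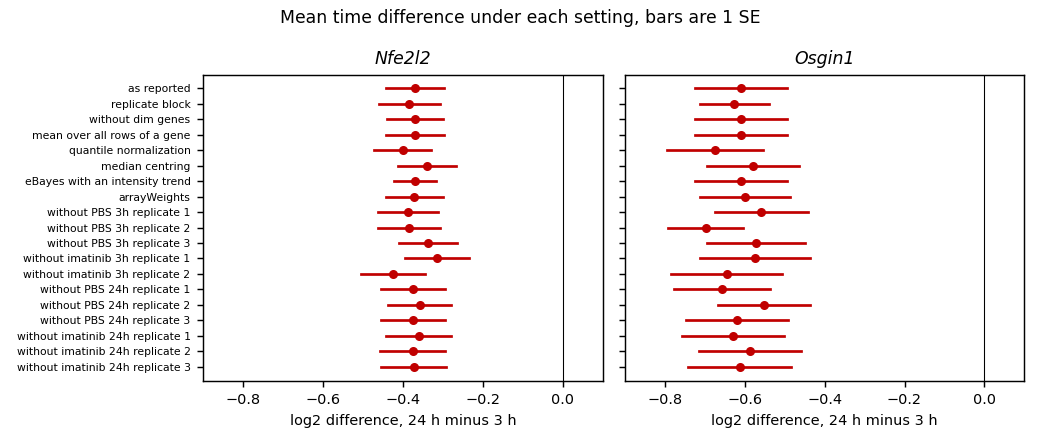
Mean time difference (horizontal axis, log2, bars are 1 SE) of Nfe2l2 and Osgin1 as reported, under the other processing settings and without each array. Red marks an adjusted p under 0.05. The setting with only the groups compared was not run for this mean. Every value stays below 0 and passes, between -0.43 and -0.31 for Nfe2l2 and between -0.70 and -0.55 for Osgin1.

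Within groups, deviations from the group means were correlated over the 11 arrays for the 36 pairs of members, with exact p-values from all 432 rearrangements of arrays within groups. The smallest p these rearrangements allow is 0.00231, so a single pair could not pass after Benjamini-Hochberg adjustment over 36, whatever its correlation, and the values are a description. The highest Pearson's r was that of Hmox1 and Srxn1, 0.91 (Spearman's rho 0.85, exact p = 0.00926 and 0.0162, adjusted p = 0.167 and 0.278, two-sided). It was 0.76 without PBS 3 h replicate 1, which was low for both, and 0.74 without the 2 arrays farthest from the median of Hmox1. The lowest was that of Keap1 and Gclc, -0.83 (rho -0.89, exact p = 0.00694 and 0.00926, adjusted p = 0.167 and 0.278), and -0.72 without the 2 arrays farthest from the median of Keap1.

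Among genes with a RefSeq name that is no predicted gene, those whose signals followed Nfe2l2 most closely over the 11 arrays were Spred2 (Pearson's r 0.98), Mtmr12 (0.97) and Ets2 (0.97), the 3 highest, with the step between 3 h and 24 h shared by all of them. Ets2, for example, had means of 10.02 and 10.10 at 3 h and 9.47 and 9.63 at 24 h in PBS and imatinib. Within groups, r with Nfe2l2 was 0.85 for Spred2, 0.95 for Mtmr12 and 0.94 for Ets2. For Hmox1 the closest genes over the 11 arrays were Thap6 (0.93), Rhox4a (0.92) and Phf10 (0.90). Their r with Hmox1 within groups was 0.94, 0.94 and 0.89. These are descriptions of 11 arrays and carry no test.

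Among the regulators of NRF2, the repressors Bach1 and Bach2 and the partner Maff fell most over time in both treatments, while Dpp3 and Palb2 rose. Of 16 measured regulators of NRF2, 3 rose and 6 fell from 3 h to 24 h in PBS (median -0.12, all genes -0.02), beside 16.6% of all genes called. Bach1, the repressor that competes with NRF2 at its elements and holds Hmox1 down, had -1.03 ± 0.11 in PBS and -0.87 ± 0.12 in imatinib (adjusted p = 7.75e-05 and 0.000730 in limma). Bach2, a related repressor, had -0.90 ± 0.21 in PBS and -1.17 ± 0.24 in imatinib. Maff, a small MAF partner, had -0.81 ± 0.19 in PBS and -0.98 ± 0.22 in imatinib. Dpp3, which can displace NRF2 from KEAP1, rose by 0.74 ± 0.15 in PBS and by 1.17 ± 0.17 in imatinib, and Palb2, another KEAP1-binding protein gene, by 0.62 ± 0.12 and 0.51 ± 0.14. Rbx1, a subunit of the KEAP1 ligase, rose by 0.34 ± 0.08 in PBS. Its difference of 0.19 ± 0.09 in imatinib did not pass (adjusted p = 0.220 in limma). In imatinib 2 of the 16 rose and 5 fell (median -0.13, all genes -0.04), beside 13.1% of all genes called, and the count of 7 was 3 without imatinib 3 h replicate 1 and 4 without replicate 2. Calls lost without 1 array were those of Rbx1 in PBS (without PBS 3 h replicate 2, 0.31), Maff in PBS (without PBS 24 h replicate 3, -0.77) and, in imatinib, Bach2 (without imatinib 3 h replicate 1, -1.15), Maff (without imatinib 3 h replicates 1 or 2, -1.04 and -0.92) and Palb2 (without imatinib 3 h replicates 1 or 2 or imatinib 24 h replicates 1 or 2, 0.45 to 0.55).

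Of 34 measured other targets of NRF2, 12 rose and 3 fell in PBS (median 0.24, all genes -0.02), beside 9.34% of all genes called higher and 7.28% lower. The 3 largest rises in PBS were those of Tkt, Pgd and Taldo1. Tkt (transketolase) rose by 0.98 ± 0.10 in PBS and by 0.82 ± 0.11 in imatinib. Taldo1 (transaldolase) rose by 0.84 ± 0.11 and 0.84 ± 0.13, and Pgd, a dehydrogenase that makes NADPH, by 0.92 ± 0.13 and 0.80 ± 0.15. Abcc4, an efflux transporter, fell, with -1.50 ± 0.18 in PBS and -1.33 ± 0.20 in imatinib. Ephx1, an epoxide hydrolase, had -0.99 ± 0.21 and -0.82 ± 0.24, and Trim16 had -0.99 ± 0.15 and -0.95 ± 0.17. In imatinib 10 rose, led by the esterase gene Esd (1.05 ± 0.21), and 3 fell (median 0.30, all genes -0.04), beside 7.76% of all genes called higher and 5.32% lower. Esd also rose in PBS (0.84 ± 0.19). The 13 called in imatinib were 8 without either imatinib 3 h array. The call of Esd in imatinib was lost without imatinib 3 h replicate 1 (0.93), and that of Ephx1 without PBS 3 h replicate 3, either imatinib 3 h array, PBS 24 h replicate 1, or imatinib 24 h replicates 1 or 3 (-0.86 to -0.66).

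Of 32 other antioxidant enzymes, 9 rose and 4 fell in PBS (median 0.18, all genes -0.02), where 16.6% of all genes were called. Glrx, glutaredoxin, rose by 1.92 ± 0.14 in PBS and by 1.71 ± 0.15 in imatinib. The mitochondrial peroxiredoxin gene Prdx3 rose by 0.83 ± 0.13 and 1.05 ± 0.14. Blvra, which reduces the biliverdin made by haem oxygenase, rose by 0.93 ± 0.14 in PBS and by 0.80 ± 0.16 in imatinib. Glrx3 rose by 0.77 ± 0.13 in PBS and by 0.83 ± 0.15 in imatinib. Sesn1, a sestrin gene, fell, with -1.42 ± 0.15 in PBS and -1.47 ± 0.17 in imatinib. Txnip, an inhibitor of thioredoxin, had -1.06 ± 0.18 in PBS and -0.999 ± 0.20 in imatinib. Msrb3, a methionine sulfoxide reductase, had -0.85 ± 0.12 in PBS. Its difference of -0.37 ± 0.13 in imatinib did not pass (adjusted p = 0.0950 in limma). In imatinib 12 rose and 3 fell (median 0.19, all genes -0.04), where 13.1% of all genes were called. Oxr1 was among those that fell in imatinib (-0.35 ± 0.10), and it also fell in PBS (-0.46 ± 0.09). The 15 called in imatinib were 8 without imatinib 3 h replicate 1, 6 without replicate 2, 9 without imatinib 24 h replicate 3 and 9 under the replicate block. In imatinib the call of Txnip was lost without imatinib 3 h replicate 2 (-0.72) and that of Oxr1 without either imatinib 3 h array, PBS 24 h replicate 1 or imatinib 24 h replicates 2 or 3 (-0.40 to -0.30). Imatinib against PBS called none of the genes of the 3 lists at either time, and the interaction called none.

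**Figure D4:**
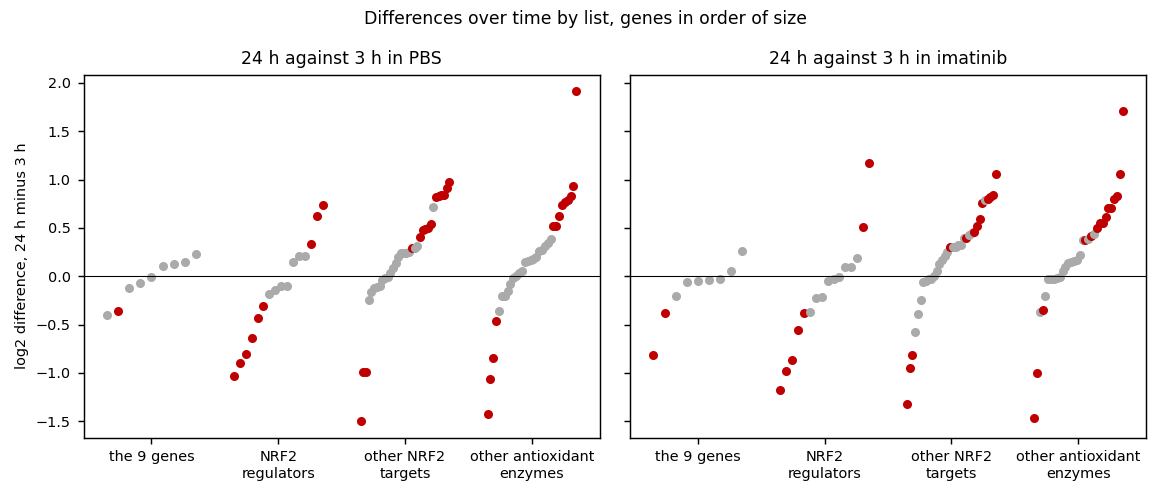
Log2 difference, 24 h minus 3 h (vertical axis), of each gene of the 9 and of the 3 lists, in order of size within a list, in PBS and in imatinib; red marks an adjusted p under 0.05. The 9 genes lie between -0.82 and 0.26, while the other lists reach from -1.50 to 1.92.

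Markers of other cell types moved over the same interval. Among all genes, 9.34% were called higher and 7.28% lower in PBS, and 7.76% higher and 5.32% lower in imatinib. Of 8 monocyte and macrophage markers 6 rose in each treatment and none fell, and their mean level went from 6.64 to 6.88 in PBS at 3 h to 9.51 to 10.10 at 24 h, and from 6.77 to 6.78 in imatinib at 3 h to 9.29 to 9.62 at 24 h. Of 8 neutrophil markers 4 rose in PBS and 3 in imatinib. Their mean level was 5.67 to 6.58 and 5.56 to 6.03 at 3 h and 6.79 to 7.59 and 6.59 to 6.97 at 24 h, in PBS and imatinib. Of 10 endothelial markers 4 fell in PBS (10.78 to 10.98 at 3 h, 10.39 to 10.57 at 24 h) and 2 in imatinib (10.97 to 10.98, then 10.72 to 10.81). Of 8 pericyte markers 7 fell in PBS (9.49 to 10.04, then 8.77 to 9.06) and none in imatinib (9.26 to 9.38, then 9.08 to 9.29). No marker of any list was called between imatinib and PBS at either time or in the interaction. Unequal counts in PBS and imatinib are therefore not read as an effect of the drug. Of 7 astrocyte markers 3 fell and 1 rose in PBS, and 1 fell and 1 rose in imatinib. Of 5 measured erythroid markers 3 rose in PBS, and 1 fell and none rose in imatinib. Of 6 microglial markers 2 fell in PBS (10.32 to 10.74, then 10.14 to 10.32) and 1 in imatinib (10.35 to 10.38, then 10.07 to 10.31). Of 6 border macrophage markers 2 rose in each treatment, of 6 smooth muscle markers 2 fell in PBS and 1 in imatinib, and of 5 oligodendrocyte markers 2 fell in PBS and none in imatinib. Of 6 neuronal markers 1 fell in PBS, and of 5 perivascular fibroblast markers 2 rose in imatinib. The part of these cell types in the falls of Nfe2l2 and Osgin1, and in the values of Hmox1 and the other members, was not tested. Their part in the rises and falls of the 3 lists was not tested either.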

How the data were processed

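RNA of vascular fragments was measured on 11 Affymetrix arrays in 4 groups defined by the labels. The deposited values are log2 RMA signals per probe set, made by the authors with Affymetrix Expression Console, RMA and limma, per the submitters' processing notes; array type, genome build and versions are not stated there. RMA equalizes arrays, so a shift of most genes would not be seen. The authors' deposited log2 differences equal the differences of group means (largest gap 1.1e-14). The deposited workbook and series matrix held the same values (largest gap 0).

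Of 33793 probe sets, 1591 without a symbol, 128 with several and 14 with a date as symbol were left out, and each gene kept its probe set of highest mean, leaving 30790 genes, 25411 of them named in RefSeq. Group means were fitted on all 11 arrays in limma 3.58.1 (R 4.3.3) with empirical Bayes variances (7 residual and 4.37 prior degrees of freedom) and Benjamini-Hochberg adjustment over all genes, at a threshold of 0.05. The fit gave imatinib against PBS at each time, 24 h against 3 h in each treatment, their interaction and, added later, the mean time difference. The fit was tested on simulated data. The number of arrays limits the precision, and no depth or date per array was available to test as a batch.

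The members and lists were chosen with earlier results of these data known. The lists held 16 regulators, 37 other targets (34 measured, without Gstm2, G6pdx and Akr1b3) and 32 other antioxidant enzymes. All 9 members are described, and each list adds, for a contrast, at most 3 genes a direction, those past the threshold that differ most. Nfe2l2 and Hmox1 also bring the 3 genes most correlated with each. Alternatives were the replicate number as a block, only the groups compared, a filter on dim genes (below the 25th percentile in every group, 6646 genes), the mean of all rows of a gene, quantile normalization, median centring, an intensity trend, array weights and leaving out each array. Figures were drawn with matplotlib 3.10.9.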

Additional observations from a re-analysis of the deposited data

How the results depend on the processing

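The count of members called over time in PBS (1, Nfe2l2) was 0 with only the arrays of the groups compared, 2 with the replicate block and 0 to 2 without single arrays. In imatinib it (2) was 1 with the replicate block, with only the groups compared and with median centring, and 0 to 2 without single arrays. In the mean of both treatments it stayed 2 under every alternative run. No member was called between imatinib and PBS or in the interaction under any alternative run. Among all genes, imatinib against PBS at 3 h (0 genes) had 2 without dim genes, 2 with quantile normalization, 2 with median centring and 0 to 4 without single arrays; at 24 h (0 genes) it had 0 to 1 without single arrays, and the interaction (0 genes) 0 to 2. Over time in imatinib 4027 genes were called, and 2274 to 4233 without single arrays. The cause of these shifts was not tested, beyond the fewer arrays or genes in some fits. Median centring moved the arrays by at most 0.043. No member or named gene changed its sign where it was called. Whether replicate numbers shared between groups pair the samples could not be settled. Deviations from group means of same-numbered arrays had correlations of only -0.04 to 0.06, yet 7 of 11 arrays correlated best with an array of their own number. The 2 or 3 arrays a group limit the precision.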
